A study of Danio rerio with 9 samples.

Results

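The 150 transcripts described here had the highest array values in the uncut zebrafish tail among transcripts that could be named. Of 37176 transcripts on the array, 3055 carried a RefSeq mRNA identifier and 2663 of these matched a zebrafish gene. The named transcripts were ranked by their mean log2 value over the 4 uncut arrays. Solute carrier genes were passed over, as was any gene whose cut and uncut values did not overlap at a mean difference of at least 0.5, and the first 150 were taken. They belong to 149 genes, since *cdc42* is represented by 2 transcripts. The members were thus chosen by their uncut level and, in part, by the difference between cut and uncut tails, so both are given as descriptions and no test of either is read as evidence.

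Both groups were larvae collected at 3 days post-fertilization (dpf). The paper lists wild-type AB fish and the *Tg(TOP:GFP)* line, and its section on expression profiling does not name the line used. The 5 cut samples came from larvae whose tail fin had been removed behind the notochord at 2 dpf and were taken at 1 day post-amputation (dpa). The 4 uncut samples came from siblings that had not been amputated. Each condition drew on about 150 tails, whose RNA went through 2 rounds of amplification before hybridization to single-color NimbleGen arrays. No source used here says that the replicates were made from different pools. How much of the replicate spread behind every p-value is technical is therefore not known. The cut arrays differed in their signal of lens and neural genes, as given below, and the source of that was not tested. A log2 value on this array also reflects how well the probes of a transcript hybridize. The rank and the percentiles below are therefore those of the array signal, and nothing is read from them about the relative abundance of different genes. Whole posterior tissue was measured, so that fewer cells of a type and less RNA per cell cannot be told apart.

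The larval tail fin is a thin fold of epidermis over a sparse mesenchyme and collagen-like fibers, behind a trunk of muscle, notochord and neural tube. After amputation, epidermal cells close the wound and form a wound epithelium, and mesenchymal cells beneath it form a blastema that proliferates and rebuilds the fin. Genes with high signal in such a tissue usually fall into a set that every cell uses, such as those of protein synthesis, secretion and respiration, and a smaller set that reports the cell types present.

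Array medians lay between 8.54 and 8.63, and single values between 3.17 and 15.99. Cut replicate 3 stood apart, and cut replicate 5 did so to a smaller degree. Their medians over 24 lens genes were 11.44 and 8.28, against 6.70 to 7.08 in the other 7 arrays. In cut replicate 3 the medians over 4 exocrine pancreas genes (8.72) and 7 neural genes (10.36) were also the highest of the 9. Of the 150 members, 32 had their lowest value in this array and 6 their highest, where an even spread over the arrays would give 16.7. Without cut replicates 3 and 5 the median difference of the members was 0.03, and 111 were within 0.25 of no difference, a choice made after seeing the data. The few named immune genes had higher means in the cut group, among them *mfap4.1*, which was also on the list of fin fold and skin matrix. The median over the 3 named ones (*spi1b*, *il1b* and *mfap4.1*, none of them a member) lay between 7.53 and 7.94 in the uncut arrays and between 8.44 and 9.81 in the cut arrays, and 3 of 3 had a higher cut mean, while 0 were called and the values of *il1b* overlapped. The part of these other tissues and cells in the members' values was not tested. Most of the usual markers of tail tissue could not be looked up, because 0 of 10 listed epidermal, 0 of 8 fin fold, 0 of 4 notochord and 1 of 12 muscle markers had a named transcript. The muscle marker, skeletal actin *acta1b*, had an uncut mean of 11.71, at percentile 87.2 of all transcripts. Of the other cell types, 2 of 5 pigment markers were named (*dct*, a member, and *pmela*), 2 of 4 lens markers (*crygmx* and *crybb1*, at percentiles 9.49 and 6.58), 1 of 5 neural markers (*stmn2b*, at percentile 47.3), and none for red blood cells, exocrine pancreas or immune cells.

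The members had uncut means from 15.07 for *stt3a*, the catalytic subunit of the oligosaccharyltransferase, to 12.12 for *rpf1*, a ribosome assembly factor, with a median of 12.87. The lowest of them stood at percentile 90.3 of all transcripts. At or above that level lay 3609 transcripts of the array, of which the members make up 4.16%, while 3448 had no name. The list thus describes only the part of the high-signal transcripts that carries a name. By their known roles, 119 of the 150 could be placed in 13 groups, a grouping made after the values had been seen, and 31 were left without one.

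**Figure D1:**
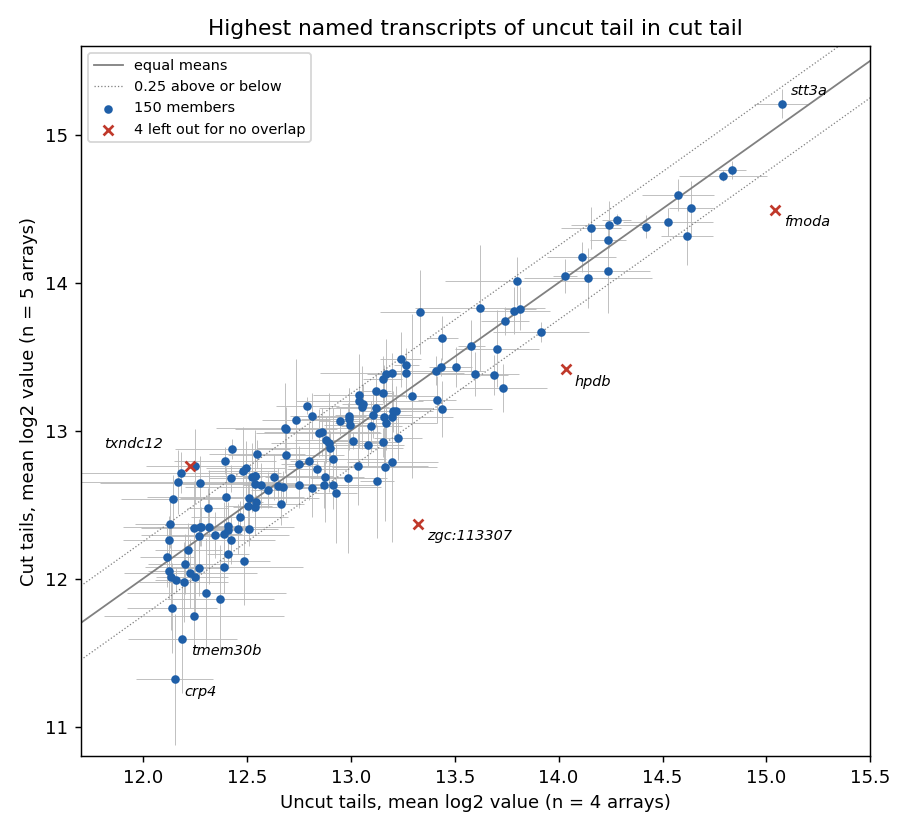
Mean log2 value of each member in cut tails (vertical axis, 5 arrays) against uncut tails (horizontal axis, 4 arrays), with SD bars; the solid line marks equal means and the dotted lines a difference of 0.25. Of the 150 members, 113 lie between the dotted lines, and the 4 crosses are genes of the same level that the choice of members left out.

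Only a few members report the skin. *spint1a* encodes a Kunitz-type inhibitor of membrane serine proteases that keeps the zebrafish epidermis intact. Its values were 14.71, 14.70, 14.44 and 14.62 in uncut replicates 1 to 4 and 14.40, 14.26, 14.02, 14.34 and 14.55 in cut replicates 1 to 5. The uncut mean was 14.62 ± 0.13 (SD, n = 4) and the cut mean 14.31 ± 0.20 (SD, n = 5), and the groups overlapped through cut replicate 5 and uncut replicate 3. *aep1*, which encodes an aerolysin-like protein, had values of 13.34, 13.42, 12.93 and 12.96 in uncut and 13.16, 13.04, 12.41, 12.34 and 12.80 in cut arrays, a difference of -0.41. Uncut replicates 1 and 2 were higher than uncut replicates 3 and 4, and cut replicates 1 and 2 lay above the latter. In replicates 1 to 4 each cut value was below the uncut value of the same number. For *agr1*, a secreted protein of the anterior gradient family, the difference was -0.15, for *mpzl3*, a membrane protein with an immunoglobulin domain known from mouse skin, -0.22, and for *tfap2c*, an AP-2 transcription factor of the surface ectoderm and neural crest, -0.07. All 5 cut means were thus lower than the uncut means, in a group drawn up after the values had been seen. The median difference was -0.22. This median ranged from -0.28 without uncut replicate 4 to -0.05 with array weights, and was -0.12 without uncut replicate 1. The group deviated by a median of 0.26 and 0.25 in uncut replicates 1 and 2. Uncut replicates 3 and 4, at -0.01 and 0.03, lay within the range of the cut arrays, -0.26 to 0.08. Cut replicates 1 to 4 were at 0.02, 0.08, -0.26 and -0.11, each below the uncut array of the same number. No source states that these numbers pair the samples. The deviation was lowest in cut replicate 3 (-0.26), and without that array the median difference was -0.20. On the list of keratin and epidermal junction genes, which includes *agr1* and *spint1a*, 19 transcripts were named. These 2 were members, 0 were called in either direction and 9 had a difference above 0. Most of the named ones were claudin genes, some of low signal, and the keratin gene *krt97* differed by -0.28.

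Muscle was represented by 5 members, 3 of them among the 27 named genes of the contraction list. *tnnc1b*, the calcium-binding troponin C of slow muscle, had values of 14.31, 14.23, 14.43 and 14.00 in uncut and 14.53, 14.43, 14.39, 14.49 and 14.12 in cut arrays. *tpm2*, a tropomyosin, had 13.58, 13.43, 13.55 and 13.08 in uncut and 13.42, 13.49, 13.34, 13.51 and 13.27 in cut arrays. For both genes uncut replicate 4 was the lowest of the 9 arrays and the groups overlapped. *myl13*, a myosin light chain, differed by 0.03, and *pacsin3*, an endocytic adaptor enriched in mammalian muscle, by -0.05. *myoz2b*, a myozenin of the Z disc, ran over 12.75, 12.04, 12.58 and 11.72 in uncut and 12.83, 12.79, 12.66, 12.38 and 12.59 in cut arrays. Its difference of 0.38 was smaller than the uncut SD of 0.48, and it fell to 0.19 without uncut replicate 4. Relative to their mean over the 9 arrays, the 5 muscle members deviated by a median of 0.27 in uncut replicate 1 and -0.33 in uncut replicate 4. The uncut arrays thus spanned 0.60, and the cut arrays 0.25, between -0.13 and 0.12. The median difference between the groups was 0.03, and it ran from -0.08 to 0.19 over the alternatives, changing sign. In the wider list, 23 of 27 named muscle genes had a cut mean above the uncut mean. Of these, 1 was called (*tnni1b*, higher), beside 0.468% of all transcripts called higher. The share of all transcripts with a higher cut mean was not computed, and their median difference was 0.04. This count and those of the other lists are thus descriptions only. Some listed genes had low signal, such as *tnni2b.2* with an uncut mean of 5.72. The list was drawn by symbol and also held heart and smooth muscle genes, such as *myl7*, *myh6* and *myh11a*. The list median lay between 7.94 and 9.62 in the uncut arrays and between 9.17 and 9.95 in the cut arrays, and *acta1b* spread from 10.92 to 12.79 over the uncut arrays alone.

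Genes of the extracellular matrix and of secreted or membrane signals formed a group of 9. This placement was made after the values had been seen. Another could add members left without a group, such as *crp4* and *f10*. *matn3a* encodes matrilin-3, a matrix protein of cartilage. Its values were 13.17, 12.83, 12.98 and 12.67 in uncut and 12.72, 12.58, 12.63, 12.63 and 12.61 in cut arrays, so the cut arrays lay close together and below all but 1 of the uncut arrays. The TGF-beta ligand genes *tgfb3* and *tgfb1a* differed by -0.12 and 0.10. *bambib*, a decoy receptor of that family, had a difference of -0.40, with values of 12.77, 12.21, 11.85 and 12.40 in uncut and 12.18, 12.14, 11.41, 12.19 and 11.59 in cut arrays. Without uncut replicate 1 its difference was -0.25, and its lowest value was in cut replicate 3. *htra1a*, a secreted serine protease, spread over 12.75, 12.12, 12.27 and 11.54 in uncut arrays and 12.92, 12.85, 12.51, 12.48 and 12.51 in cut arrays. Its difference of 0.48 was close to the uncut SD of 0.50, and became 0.27 without uncut replicate 4 and 0.82 with array weights. The Wnt receptor gene *fzd10* (-0.02), the secreted glycoprotein gene *fstl1a* (0.11), the secreted EGF-repeat gene *egfl6* (-0.08) and *seraf* (0.02) stayed within 0.25. As for muscle, uncut replicate 1 was the highest of the 9 arrays for this group, with a median deviation of 0.32, and uncut replicate 4 the lowest, at -0.17. Of 12 named genes on the list of fin fold and skin matrix, *matn3a* was the 1 member, and 1, the dermatopontin gene *dpt*, was called, as lower.

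Pigment cells were represented by *dct*, dopachrome tautomerase of the melanin pathway, and by *bace2*, a membrane protease known in zebrafish for its role in melanophores. *dct* had values of 13.05, 12.53, 12.42 and 12.16 in uncut and 12.81, 13.06, 12.36, 12.37 and 12.86 in cut arrays. Both groups covered nearly the same range, and the difference was 0.15. *bace2* differed by 0.06, at 12.57 ± 0.09 (SD, n = 4) in uncut and 12.63 ± 0.15 (SD, n = 5) in cut tails. The other named pigment marker, the melanosome matrix gene *pmela*, which was no member, ran from 8.33 to 10.56 over the uncut and from 7.59 to 9.13 over the cut arrays, a difference of -0.76 with overlapping groups. Of the 4 named genes on the pigment list, 3 had a difference above 0 and 0 were called. No member came from the lists of red blood cell, neural, lens, exocrine pancreas, immune or ionocyte genes, and *matn3a* alone came from the notochord list.

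**Figure D2:**
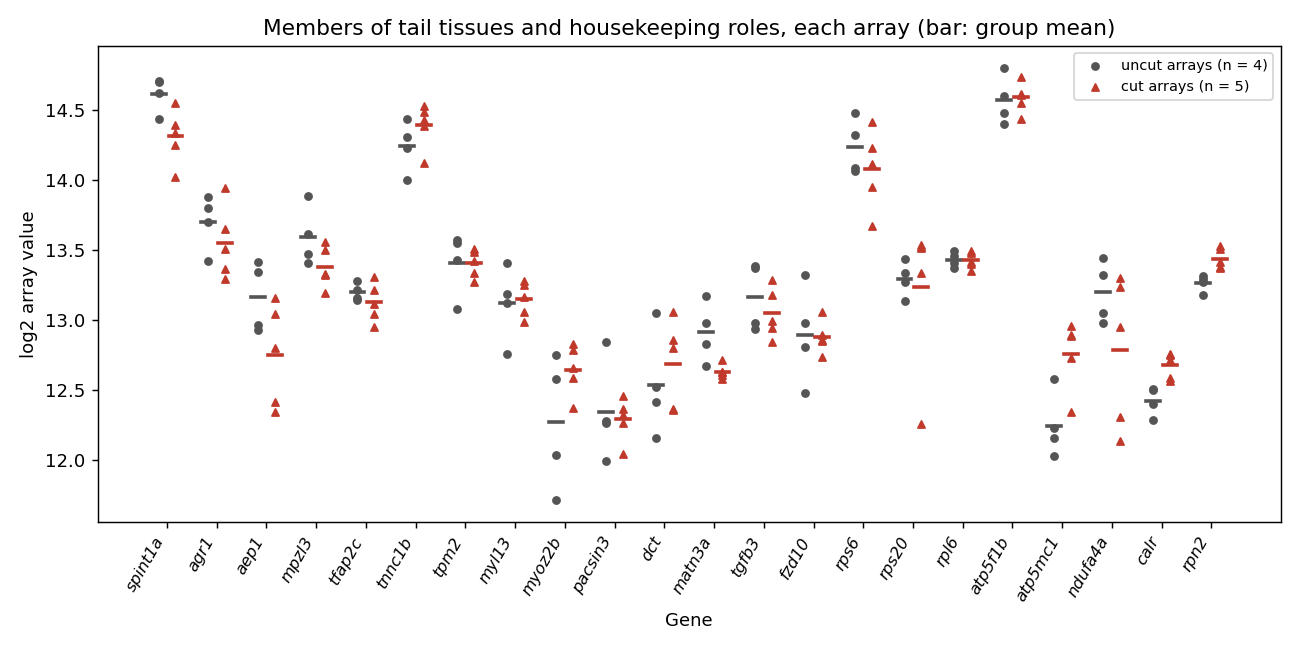
Log2 array values of 22 members in each uncut array (circles) and cut array (triangles), with bars at the group means; the genes run from epidermis and muscle through pigment, matrix and signals to translation, respiration and the endoplasmic reticulum. Circles and triangles overlap in every gene except *rpn2* and *calr*, and the low triangle of *rps20* is cut replicate 5.

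Further groups held genes of processes that most cells use. They were placed by known role, and breadth of expression was not measured. For protein synthesis, 9 members were found, among them the ribosomal protein genes *rps6*, *rps20* and *rpl6*, *rack1*, which encodes a scaffold on the small subunit, *tpt1*, *naca*, which encodes a subunit of the nascent chain complex, and the initiation factor genes *eif3ea* and *eif3k*. All 9 had a difference within 0.25, with a median of -0.01. *rpl6* had the second smallest spread of all members, with values of 13.50, 13.46, 13.37 and 13.41 in uncut and 13.48, 13.40, 13.42, 13.50 and 13.35 in cut arrays. *tpt1* had 15.09, 14.75, 14.71 and 14.61 in uncut and 14.73, 14.78, 14.69, 14.69 and 14.73 in cut arrays. *rps20* ran between 13.14 and 13.54 in 8 arrays and was 12.26 in cut replicate 5. *rps6*, at 13.68 and with a difference of -0.16 between the groups, and *naca*, at 13.27 and -0.01, were also lowest in that array, and the group deviated there by a median of -0.26, against -0.09 to 0.16 elsewhere. Of 6 named ribosomal protein genes 4 were members, and of 14 named translation factor genes 4 were, and 0 on either list were called.

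Genes of ribosome assembly added 6 members. *nop56*, *nop10*, *gar1* and *nop53* encode nucleolar proteins, the first 3 of them parts of small nucleolar ribonucleoproteins, and *esf1* and *rpf1* act in the processing of ribosomal RNA. Their differences ran from -0.09 to 0.34, and 5 of 6 were within 0.25, among them *nop56* (0.20), *nop10* (0.15) and *nop53* (-0.06). *esf1* had values of 12.64, 12.23, 12.96 and 12.90 in uncut and 13.14, 12.75, 12.79, 13.49 and 12.93 in cut arrays, so its difference of 0.34 rested on an overlapping pair of groups with SDs of 0.33 and 0.31.

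The secretory pathway held 15 members, which together covered protein entry into the endoplasmic reticulum (*sec61b*), N-glycosylation (*stt3a*, *rpn2*), folding and calcium binding there (*calr*, *rcn3*, *gpx7*), and transport through the Golgi apparatus and vesicles (*surf4*, *sec22bb*, *scamp3*, *yipf3*, *golm1*, *gpr107*, *rab18b*, *rab10* and *ap3s1*). Of these, 14 were within 0.25, and the median difference was 0.10. *calr*, the luminal chaperone calreticulin, was at 12.50, 12.51, 12.40 and 12.29 in uncut and 12.75, 12.76, 12.72, 12.57 and 12.59 in cut arrays. *rpn2*, a subunit of the oligosaccharyltransferase, was at 13.31, 13.27, 13.30 and 13.18 in uncut and 13.53, 13.37, 13.51, 13.41 and 13.38 in cut arrays. In both genes the lowest cut value exceeded the highest uncut value, at differences of 0.25 and 0.17. For *stt3a*, with 15.26, 14.95, 15.04 and 15.05 in uncut and 15.12, 15.15, 15.25, 15.16 and 15.36 in cut arrays, uncut replicate 1 fell among the cut values. *sec61b*, with a difference of 0.21, spread from 13.16 to 14.15 over the cut arrays, and its groups overlapped. *yipf3*, a Golgi membrane protein gene, had a mean of 13.74 in both groups.

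Respiration and mitochondria contributed 9 members, and 7 of them had a higher cut mean, with a median difference of 0.21 that ran from 0.08 to 0.34 over the alternatives. *atp5f1b*, the beta subunit of ATP synthase, had 14.81, 14.48, 14.60 and 14.40 in uncut and 14.55, 14.44, 14.74, 14.62 and 14.61 in cut arrays, a difference of 0.02. *atp5mc1*, a subunit of the membrane ring of the same enzyme, had 12.16, 12.23, 12.58 and 12.03 in uncut and 12.89, 12.96, 12.89, 12.73 and 12.34 in cut arrays, a difference of 0.51. In this gene 4 of 5 cut values exceeded the highest uncut value, and cut replicate 5 did not. *ndufa4a*, which encodes a small protein of the respiratory chain, went the other way at -0.41, with 13.05, 13.44, 13.32 and 12.98 in uncut and 12.95, 13.24, 13.30, 12.31 and 12.14 in cut arrays, so the lower mean came from cut replicates 4 and 5. For the prohibitin gene *phb2a* (0.29) every cut array was above every uncut array, while the ATP synthase inhibitor gene *atp5if1a* (0.33), the dehydrogenase genes *idh2* (0.21) and *mdh2* (0.16), *ghitm* (-0.05) and the assembly factor gene *uqcc1* (0.24) overlapped. Uncut replicates 2 and 4 were the lowest arrays of this group, with median deviations of -0.28 and -0.22, and the other uncut arrays, at 0.02 and 0.10, lay within the range of the cut ones. On the list of respiratory and mitochondrial genes, 6 of 35 named transcripts were members, 24 had a difference above 0 and 0 were called.

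Protein breakdown and autophagy were represented by 11 members: the proteasome genes *psma3* and *psmd13*, *cops3*, a subunit of the COP9 signalosome, the ubiquitin-conjugating enzyme genes *ube2nb* and *ube2ka*, the ligase adaptor genes *ndfip1l* (-0.11) and *dcaf11*, the lysosomal gene *ctsa*, and *map1lc3b*, *atg3* and *becn1* of autophagosome formation. Of these 11, 9 were within 0.25. *map1lc3b*, which encodes the ubiquitin-like protein attached to autophagosome membranes, was at 13.76, 13.72, 13.60 and 13.68 in uncut and 13.43, 13.50, 13.26, 13.21 and 13.48 in cut arrays. Every cut array was lower, at a difference of -0.31. *atg3* and *becn1*, whose products act in the same process, differed by -0.08 and 0.07 with overlapping groups. *cops3*, at a difference of 0.05, was among the steadiest members, with an SD of 0.07 over the 9 arrays. Of 16 named proteasome and ubiquitin genes, 4 were members and 0 were called.

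The cytoskeleton, small GTPases and adhesion accounted for 13 transcripts of 12 genes. The 2 transcripts of *cdc42*, a small GTPase that controls cell polarity, differed by -0.12 and 0.01, with overlapping groups in both. *lima1a*, which encodes a LIM-domain protein that bundles actin, had 13.01, 12.78, 12.67 and 12.70 in uncut and 13.22, 13.20, 13.09, 13.12 and 13.21 in cut arrays, and every cut array was higher, at a difference of 0.38. *pxna*, the focal adhesion adaptor paxillin, had 13.99, 13.78, 13.68 and 13.49 in uncut and 13.33, 13.49, 13.04, 13.32 and 13.28 in cut arrays. Its groups met in cut replicate 2 and uncut replicate 4, and the difference was -0.44. The other 9 genes, the Arp2/3 complex gene *arpc2* (-0.13), the syndecan gene *sdc4* (0.22), *marcksl1a* (0.06), *twf1a*, *pls3*, *rnd3a*, *septin7a*, *bcam* and *afap1l1a*, differed by at most 0.22 in either direction.

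Among 10 genes of intracellular signaling, *ppp2cab*, the catalytic subunit of protein phosphatase 2A, was steady, at 14.93, 14.80, 14.80 and 14.80 in uncut and 14.80, 14.80, 14.76, 14.66 and 14.80 in cut arrays. *calm2b*, a calmodulin gene with close copies in the genome, had 14.22, 14.25, 14.38 and 14.27 in uncut and 14.41, 14.47, 14.38, 14.46 and 14.41 in cut arrays, and the groups did not overlap, at a difference of 0.15, although cut replicate 3 and uncut replicate 3 were equal to 2 decimals. *csk*, a kinase that holds Src family kinases inactive, had a lower value in every cut array, at a difference of -0.23. *ppm1g*, a nuclear phosphatase, had the largest difference of the group at 0.40, with overlapping groups. The kinase gene *pim3* was at 0.29, and *nfkb2* (0.15), *ptp4a2a*, *ppp1cbl*, *rhebl1* and *pdpk1b* were within 0.25.

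Chromatin, transcription and the cell cycle provided 15 members, of which 11 were within 0.25. *ccna2*, cyclin A, had 12.53, 12.00, 12.61 and 11.59 in uncut and 12.59, 12.77, 12.55, 12.81 and 12.86 in cut arrays. Its difference of 0.54, the highest of the 150, exceeded the uncut SD of 0.48, but uncut replicate 3 lay among the cut values and uncut replicate 1 just below them, and it was 0.34 without uncut replicate 4. *ccnd2a*, cyclin D2, had a difference of -0.35, with 13.05, 12.83, 12.98 and 12.86 in uncut and 12.79, 12.83, 12.38, 12.80 and 12.07 in cut arrays. *cbx3a*, a heterochromatin protein, was between 12.95 and 13.06 in the cut arrays and between 12.48 and 13.04 in the uncut arrays. *hlfa*, a bZIP transcription factor, was at 12.31, 12.06, 12.68 and 12.44 in uncut and 12.17, 11.23, 11.89, 12.01 and 12.02 in cut arrays, and its difference of -0.51 became -0.35 without cut replicate 2. The steadiest of all members was *zbtb7b*, a zinc finger repressor, with values from 12.47 to 12.60 and an SD of 0.05 over the 9 arrays. The Mediator genes *med19a* (0.03) and *med10*, the transcription factor genes *gtf2a2* and *pbx4* (0.13), the chromatin genes *mbd3a* (-0.08), *banf1*, *rad21a* and *hmgb1a*, the cofactor gene *lbh* and the RNA-binding gene *qkia* were within 0.25. Of 8 named cell cycle genes, 2 were members, 7 had a difference above 0 and 0 were called.

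Enzymes of lipid, redox and small-molecule metabolism made up 10 members, and 7 had a lower cut mean, with a median difference of -0.16 that ran from -0.21 to -0.06 over the alternatives. *sgms1b*, a sphingomyelin synthase, was at 13.00, 12.75, 12.89 and 12.83 in uncut and 12.73, 12.75, 12.38, 12.57 and 12.75 in cut arrays, with every cut array lower by a small margin. *peds1*, the desaturase of plasmalogen synthesis, and *mgst3b*, a microsomal glutathione transferase, had differences of -0.27 and -0.31, the latter set by cut replicate 5 at 11.85. *sptlc2a* (0.00), *prdx6* (-0.05), *selenow2b* (-0.25), *sdr16c5b* (0.25), *tpmt.1* (-0.10), *fut9b.1* (-0.22) and *cyp20a1* (0.17) were the others.

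The 31 members without a group included the 2 largest differences in the list. *crp4*, of the C-reactive protein family, had 12.38, 12.03, 11.98 and 12.23 in uncut and 12.02, 11.30, 10.91, 11.38 and 10.98 in cut arrays. Its difference of -0.83 corresponds to a ratio of 0.561, and only cut replicate 1 reached the uncut range. *tmem30b*, a subunit of lipid flippases, had 12.08, 12.55, 11.95 and 12.18 in uncut and 12.02, 11.95, 11.21, 11.38 and 11.40 in cut arrays, a difference of -0.60. For *f10*, coagulation factor X, the difference was -0.50, and -0.33 without uncut replicate 1. *rab5if*, with 12.53, 12.15, 12.77 and 12.28 in uncut and 12.83, 12.93, 12.79, 12.95 and 12.88 in cut arrays, was higher in every cut array at 0.45. *ms4a17a.7* (0.47), *dap1b* (-0.47), *morn3* (0.40), *vstm4a* (-0.36), *zgc:158263* (-0.34), *zgc:101810* (-0.31), *zgc:77439* (-0.29) and *mxra8b* (-0.27) were the others beyond 0.25. The remaining 19 were *dnaja2a* (-0.04), *zgc:123258* (0.01), *rwdd1*, *plscr3b*, *tpd52l2a*, *babam2*, *zgc:101783*, *pcmtd1*, *kctd5a*, *si:dkey-33c12.12*, *abcg2c*, *aip*, *tmem19*, *soul3*, *ano10a*, *sdr39u1*, *tlcd4b*, *capn12* and *hvcn1*. The chaperone gene *dnaja2a* was the steadiest of these, with values from 14.31 to 14.47. In this mixed group 22 of 31 had a lower cut mean, and the median deviation was lowest in cut replicate 3, at -0.19.

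**Figure D3:**
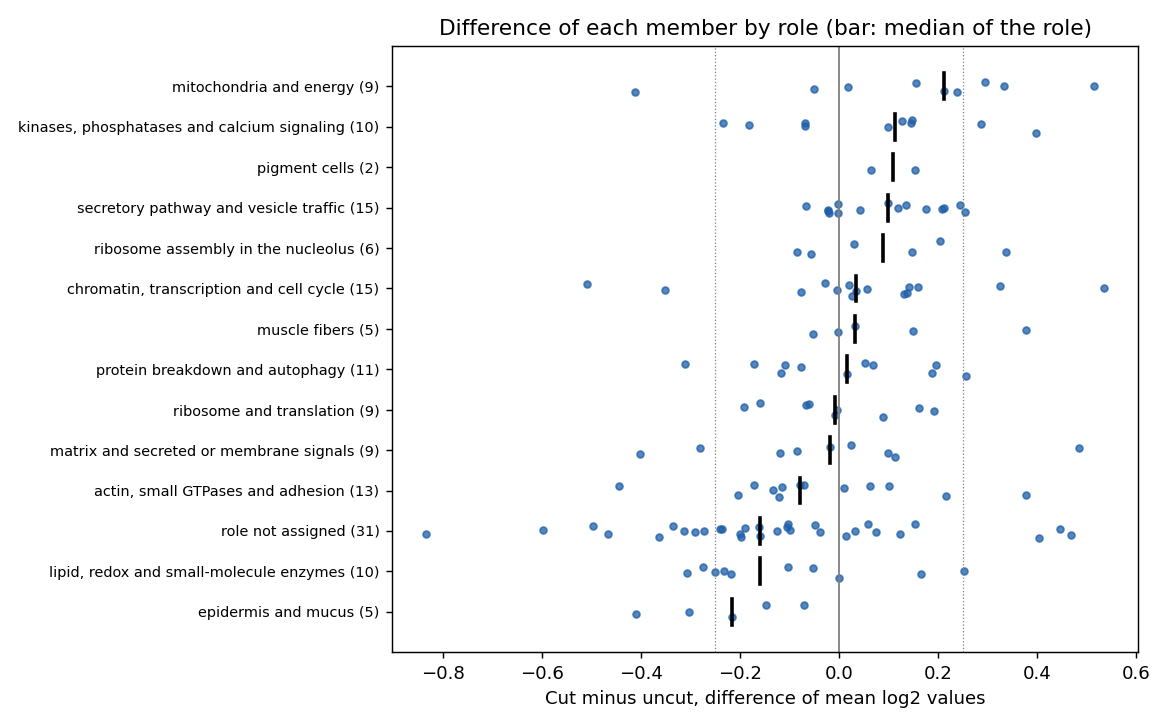
Difference between the cut and uncut mean log2 value (horizontal axis) of each member, 1 point per transcript, by role, with the number of transcripts in brackets; black bars are medians and dotted lines mark 0.25. The medians of the roles run from -0.22 for epidermis and mucus to 0.21 for mitochondria and energy.

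Over all 150 members, 71 had a higher and 79 a lower cut mean. Their median difference was -0.0038, against 0.04 over all 37176 transcripts. It was -0.04 over 3333 transcripts without a name at the same level, after non-overlapping ones with a difference of 0.5 or more had been left out. A difference of at most 0.25 on the log2 scale, or a ratio of 1.19, was found for 113 members, or 75.3%. The share was 69.7% over all transcripts, from which the non-overlapping ones had not been removed. It was 73.5% over the 3333 transcripts without a name at the same level after the same exclusion of non-overlapping ones. Over named transcripts of any level, after the exclusions used for the members, it was 74.4%. Of the other 37 members, 17 lay above 0.25 and 20 below -0.25, and 2, *crp4* and *tmem30b*, were past a fold change of 1.5. In the linear model across all transcripts (limma), 0 members passed a fold change of 1.5 and an adjusted p of 0.1, where the background share of calls was 0.697% (0.468% higher and 0.229% lower). These shares rest on 174 and 85 transcripts, counts that ran from 47 to 326 and from 7 to 544 when single arrays were left out, the highest of both without uncut replicate 3. With the replicate number as a block, which uses 8 arrays, limma called 2 members, *atp5mc1* (0.62, adjusted p 0.0949) and *crp4* (-0.75, adjusted p 0.0885), where the same 8 arrays without the block gave 0. With no minimum fold 0 members were called either, beside 0.713% of all transcripts. The lowest adjusted p of a member from limma was 0.176 (*crp4*), and 24 members, or 16%, had an unadjusted p under 0.05, where the background was 12.2%. Since the choice of members removed genes that differed, nothing is read from these counts. In 9 members, or 6%, the groups did not overlap. The cut arrays lay above in 6 (*lima1a*, *calm2b*, *rpn2*, *calr*, *phb2a* and *rab5if*) and below in 3 (*csk*, *map1lc3b* and *sgms1b*). Over all transcripts the share was 4.72% in either direction, 2.83% above and 1.89% below. That background kept non-overlapping transcripts with a difference of 0.5 or more, which the choice of members removed. The shares are therefore not compared.

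**Figure D4:**
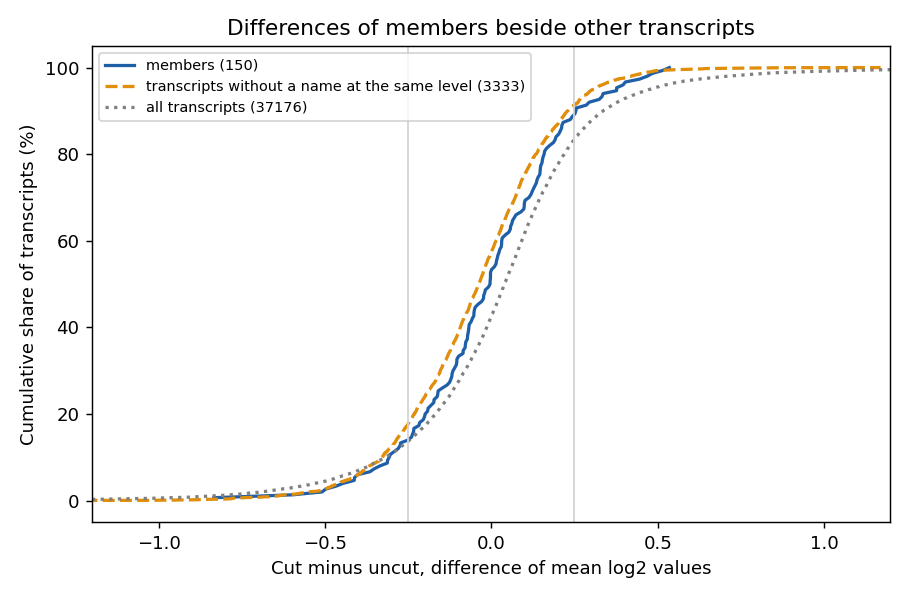
Cumulative share of transcripts (vertical axis, %) by their difference between cut and uncut mean log2 values (horizontal axis) for the 150 members, for 3333 transcripts without a name at the same uncut level and for all 37176 transcripts; grey lines mark 0.25 on either side. The curves of the members and of the transcripts of the same level lie close together, with 75.3% and 73.5% between the grey lines, and all transcripts spread wider, with 69.7%.

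Most members were also among the highest transcripts of the cut arrays, which had not been used to rank them although they entered the exclusion. A large overlap was likely beforehand, since all arrays share the same probes and the most separated genes had been left out. Of the 150, 134 (89.3%) were also among the 150 highest eligible transcripts when these were ranked by the cut mean, and the lowest of them stood at rank 298 there. Of the first 50 by uncut mean, 42 were among the first 50 by cut mean. In single cut arrays, 125 to 135 of the members were among the 150 highest, with the smallest number in cut replicate 3, and in single uncut arrays 136 or 137.

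The median SD of a member was 0.165 over the uncut arrays and 0.161 over the cut arrays, against 0.223 and 0.254 for all transcripts and 0.159 and 0.197 for the transcripts without a name at the same level. In 54 of the 150 members the difference between the means exceeded the larger of the 2 SDs. The share was not computed for other transcripts, so nothing is read from this count. Over all 9 arrays, the SD of a member ran from 0.05 (*zbtb7b*) to 0.55 (*crp4*). After *zbtb7b*, *rpl6*, *dnaja2a*, *cops3* and *ppp2cab* varied least, and besides *crp4*, *ndufa4a*, *tmem30b*, *htra1a* and *ccna2* varied most. Uncut replicate 1 held the highest value of 49 members, and its median deviation over the list was 0.10, against -0.06 to 0.06 in the other arrays.

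**Figure D5:**
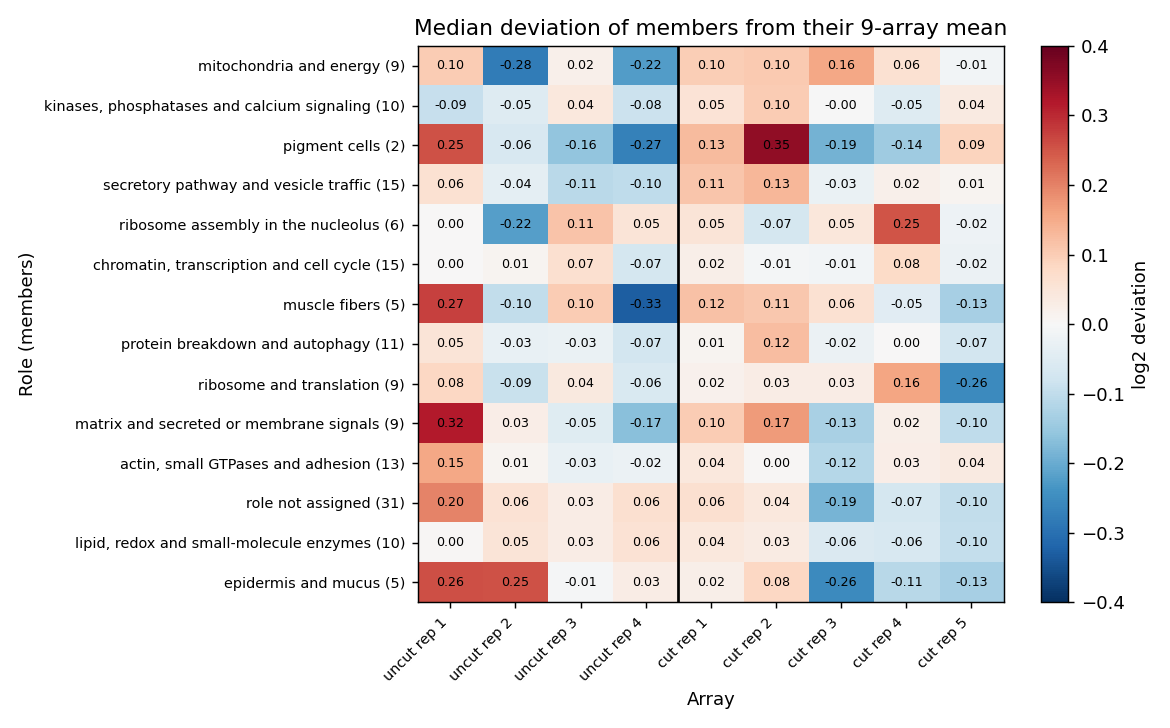
Median deviation of the members of each role (rows, number of transcripts in brackets) from their mean over the 9 arrays, on the log2 scale, in each array (columns; the black line divides uncut from cut). Muscle members run from 0.27 in uncut replicate 1 to -0.33 in uncut replicate 4, and those of ribosome and translation are lowest in cut replicate 5, at -0.26.

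The choice of members left out 11 named transcripts of the same level or higher, 7 of them solute carrier genes. By uncut mean these were *slc25a5* (15.25), *slc16a10* (14.98), *slc37a2* (14.64), *slc35b3* (12.93), *slc16a4* (12.89), *slc25a43* (12.44) and *slc27a1b* (12.44). The signal of *slc25a5* was thus above that of *stt3a* (15.07), the highest member. The other 4 of the 11 were left out because their cut and uncut values did not overlap. *fmoda*, which encodes fibromodulin, a proteoglycan that binds collagen fibrils, had 15.13, 15.01, 15.11 and 14.91 in uncut and 14.74, 14.68, 14.28, 14.35 and 14.43 in cut arrays. *hpdb*, an enzyme of tyrosine breakdown, had a cut mean lower by -0.62, and *zgc:113307* one lower by -0.95. *txndc12*, a thioredoxin-fold protein of the endoplasmic reticulum, was higher in cut arrays, with 12.21, 12.25, 12.33 and 12.13 in uncut and 12.74, 12.71, 12.73, 12.65 and 12.98 in cut arrays. At the lower limit, *hmgb1a* (12.13), *afap1l1a* (12.13) and *rpf1* (12.12) were the last members, and *pitpnc1b* (12.10), *lims1* (12.10) and *dexi* (12.10) the first transcripts outside. Their uncut SDs of 0.09 to 0.22 were larger than these gaps.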

How the data were processed

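Expression was measured in 5 cut and 4 uncut tail samples on NimbleGen arrays with 1 color. The authors used NimbleGen software and then ArrayStar for RMA background correction and a step called quartile normalization (version not given in the sources used here), and deposited 1 log2 value per transcript and array. How probes were summarized is not given in the sources used here, and hybridization to close gene copies was not checked. The submitters' processing notes list RMA too. No further normalization was applied. Names came from RefSeq (assembly GRCz12tu), for names only.

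Group means, SDs and differences were computed in Python 3.11.15 with pandas 2.3.3, and the comparison of all transcripts was run in R 4.3.3 with limma 3.58.1, with condition as the only term and Benjamini-Hochberg adjustment. Calls used a fold change of 1.5 and an adjusted p of 0.1, and the model was tested on simulated data. Arrays have no read depth, so precision rests on how many there are and on their spread. The estimated array weights ran from 0.40 in uncut replicate 1 to 3.02 in uncut replicate 4.

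Values are given for up to 4 members per role with the highest uncut mean, for the 10 largest differences, the 5 smallest and 5 largest SDs, the transcripts next to the limit, the genes left out and the members with an outlying array, and further members were added. Of 21 gene lists defined by symbol, symbols caught for their name only were removed later. The members and lists were chosen with earlier results of these data known. Nothing states that replicate numbers pair the samples, so the model has no block. Overlap of the groups and SDs are also given without regard to these numbers unless stated. An array's deviations nevertheless matched best those of its own number for 7 of 8 arrays, and for 8 of 8 without cut replicate 5. A reading by number could therefore differ from the one given. The alternatives were quantile normalization, centering on array medians, leaving out the lowest 25% of transcripts, a variance trend, array weights, the replicate number as a block, other thresholds, other ways to rank members, and each array left out in turn. Leaving out cut replicates 3 and 5 together was chosen after seeing the data. The values of 1 member are not reported here.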

Additional observations from a re-analysis of the deposited data

Results flagged for a closer look

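For each member, the 4 uncut and the 5 cut values were searched for an array far from the rest of its group (Dixon's test). Of 300 groups of values, 18 held one, where chance gives about 15 (1 in 20). In uncut arrays these were *ppp2cab* at 14.93 in replicate 1 (others 14.80), *dnaja2a* at 14.38 in replicate 2 (others 14.43), *ano10a* at 12.58 in replicate 2 (others 12.35), *yipf3* at 13.91 in replicate 3 (others 13.67 to 13.70), *sptlc2a* at 12.72 in replicate 3 (others 12.55 to 12.57) and *cyp20a1* at 12.16 in replicate 4 (others 12.35 to 12.38).

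In cut arrays, *morn3* was at 12.64 in replicate 1 (others 12.81 to 12.85) and *cops3* at 14.36 in replicate 2 (others 14.27 to 14.28). Cut replicate 3 was low for *egfl6*, at 12.83 (others 13.18 to 13.25), and *mbd3a*, at 12.83 (others 12.95 to 12.97). In cut replicate 4, *atg3* (13.19, others 13.44 to 13.54) and *pls3* (12.67, others 13.19 to 13.33) were low, and *phb2a* (13.01, others 12.78 to 12.82) and *rpf1* (12.51, others 12.02 to 12.12) were high. In cut replicate 5, *rps20* was at 12.26 (others 13.34 to 13.54), *gtf2a2* at 11.69 (others 12.36 to 12.61) and *surf4* at 12.19 (others 12.55 to 12.58), while *lbh* was high, at 12.96 (others 12.55 to 12.65).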

How the results depend on the processing

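The list of members changed little with the way it was drawn: 139 were kept when genes were excluded after the 150 had been taken, 145 with the uncut median, 149 with quantile normalization, 134 when ranked by the cut mean, 150 with transcripts of a gene averaged, and 141 to 145 with each uncut array left out. The median difference of the members, -0.0038, lay between -0.03 and 0.03 when single arrays were left out and was -0.0560 with arrays centered on their median; the number of members within 0.25 was 106 to 115 over the alternatives. Against 0 members called, array weights called 6 (*atp5mc1*, *ccna2*, *htra1a* and *myoz2b* higher, *crp4* and *hlfa* lower), the replicate block 2 (*atp5mc1*, *crp4*), leaving out cut replicate 1 called 1 (*crp4*), and leaving out any other array 0, so the range was 0 to 1. Over all transcripts, 174 were called higher and 85 lower, with array weights 1371 and 1257, with the replicate block 377 and 297, and with an adjusted p of at most 0.05 90 and 29. Leaving out single arrays gave 47 to 326 higher (the lowest when uncut replicate 2 or 4 was missing, the highest when uncut replicate 3 was) and 7 to 544 lower (uncut replicate 4, uncut replicate 3). Among the others, the higher calls were 84, 65 and 96 when cut replicate 1, 2 or 4 was missing, and the lower calls 39 and 9 for uncut replicates 1 and 2, and 37, 39, 30 and 42 for cut replicates 2 to 5. The stricter threshold calls fewer by construction; otherwise the cause was not tested. The block used 8 arrays. Deviations of same-numbered arrays correlated at 0.09 to 0.58 over all 9 arrays and at 0.21 to 0.59 over these 8, and an array's best match had its own number for 7 and 8 of 8 arrays.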
